A study of Homo sapiens with 6 samples.

Results

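RNA-seq counts of EGF receptor ligands and receptors were compared between control HK-2 cells (NC) and HK-2 cells overexpressing *PPM1K* (OE). The members were the rows whose symbol was *EGFR*, *ERBB2* or *ERBB3* (receptors), *AREG*, *EREG*, *HBEGF*, *TGFA*, *BTC* or *EPGN* (ligands), or *ERRFI1* (a receptor inhibitor). All 10 were present among the 31369 genes of the count table, and 9 of them passed the filter on low counts, which *EPGN* did not. HK-2 cells are a human line, derived from proximal tubule epithelium and immortalized with papillomavirus genes. The study grew it in DMEM with fetal bovine serum and transfected it with a *PPM1K* plasmid using Lipofectamine. Serum-free medium was used from shortly before transfection, and fresh medium was given some hours after it. Whether the fresh medium held serum is not stated. Each group held 3 samples, and all 6 samples carry a day 10 entry and a chronic kidney disease entry in the labels. The titles name hairpins (shControl and shPPM1K), while the genotype entries read WT and PPM1K overexpress, and the genotype entries were followed here. The cell line entries number the line differently from sample to sample. What the control cells received in place of the plasmid, and whether the samples came from separate cultures, is not given in the sources used here. The p-values below therefore measure the spread between these samples, which may be technical.

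The EGF receptor is a tyrosine kinase of the cell surface that dimerizes when a ligand binds and passes the signal on, mainly through RAS, MEK and ERK and through PI3K. Its ligands are made as membrane-anchored precursors that are cut loose by ADAM proteases, so a cell can stimulate itself and its neighbours. In the kidney tubule this receptor is known for its part in repair after injury and, when it stays active, in fibrosis.

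NC libraries held 34635770 to 36116963 counts each, and OE libraries 36033404 to 39850802. *PPM1K* itself had 19 to 53 counts in NC and 2919 to 3531 in OE, as the genotype entries state and the titles do not. Counts per gene do not separate plasmid transcripts from those of the cells' own gene. NC replicate 2 stood apart by holding 3551 genes counted in no other sample, against 449 to 766 in the others. OE replicate 3 stood apart in its counts, with a mean chi-square per gene of 11.7 and 10.6 against OE replicates 1 and 2, where every other pair within a group was at 5.12 to 7.13. No call on a member changed without either of these samples. The line carried 5 of 6 keratin and adhesion markers (all but CDH1) and 4 of 6 kidney lineage markers, among them PAX8, at 1 FPKM or more in every sample. CDH1, the epithelial cadherin, was at 0.28 to 0.34 FPKM in NC and 0.10 to 0.21 in OE. FPKM is the fragment count scaled to transcript length and library size. None of 10 markers of the mature proximal tubule reached that level, and LRP2 was absent from the deposited FPKM. The labelled origin was thus carried by lineage genes rather than by transporters. Summed marker FPKM differed between the groups, with no overlap, in all 6 lists. Over all tested genes, counts scaled to library size lay wholly above NC in OE for 28.2% and wholly below for 27.1%. The mature tubule, endothelial and leukocyte sums were under 1 FPKM in every sample, near the floor. The kidney lineage list was at 81.4 to 86.6 in NC and 69.5 to 74.5 in OE. The list of keratins and adhesion genes was at 777 to 872 in NC and 667.5 to 726 in OE, although KRT7 within it was at 32.0 to 38.3 in NC and 41.9 to 48.4 in OE. Mature proximal tubule markers were at 0.49 to 0.75 in NC and 0.36 to 0.42 in OE, and leukocyte markers were at 0.23 to 0.38 and 0.12 to 0.18. Endothelial markers went the other way, from 0.57 to 0.73 in NC to 0.80 to 0.94 in OE. The list of 7 fibroblast markers was at 2.94 to 3.10 in NC and 1.1 to 1.15 in OE, with COL3A1 and PDGFRA absent from the deposited FPKM. Fewer cells of a type and less RNA per cell cannot be told apart in bulk samples. The part of these markers in the results below was not tested.

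Most ligands of the EGF receptor were higher in cells overexpressing *PPM1K*. Of the 9 tested members, 7 were higher in OE at an adjusted p under 0.05, and these were *EREG*, *ERRFI1*, *AREG*, *EGFR*, *TGFA*, *BTC* and *HBEGF*. Among all 15878 tested genes, 24.9% were higher by the same rule. *ERBB2* was the 1 member that was lower, where 23.7% of all tested genes were. Tests were made with the quasi-likelihood method of edgeR, and p was adjusted over all tested genes (Benjamini-Hochberg). With the study's further condition of a fold change above 2 or below 0.5, only *EREG* was called higher (1.73% of all tested genes) and no member was called lower (3.79%). CPM is the count scaled to library size with edgeR's TMM factors. On that scale OE lay wholly above NC in 7 of the 9 members (28.2% of all tested genes) and wholly below it in 2 (27.1%). The median log2 fold change was 0.62 over the 9 members and -0.0032 over all tested genes.

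**Figure D1:**
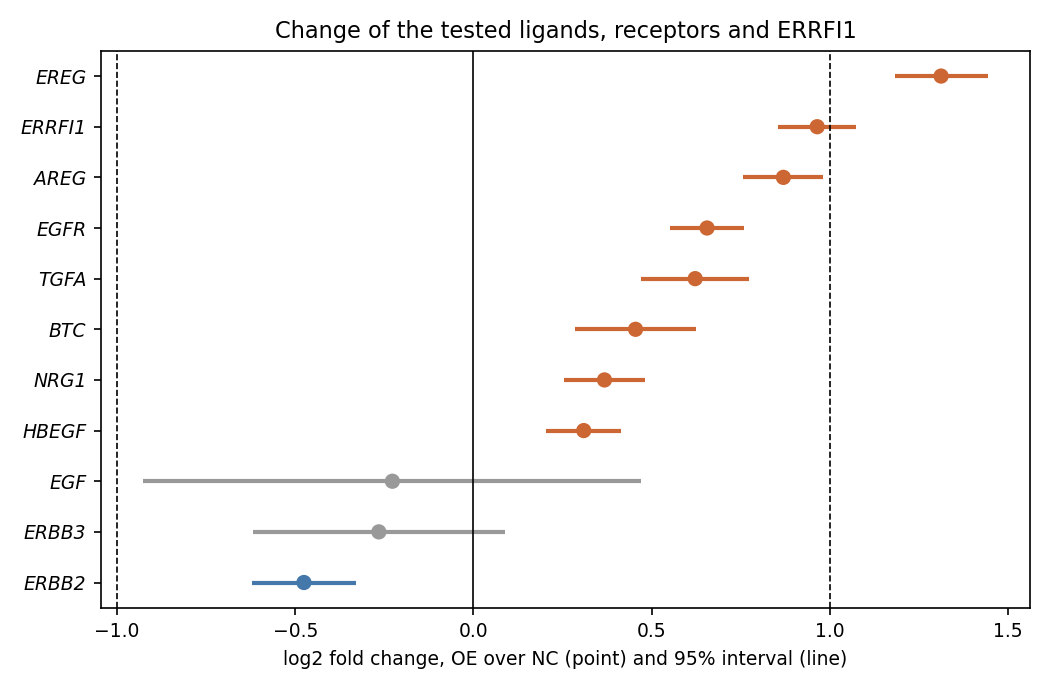
Log2 fold change of OE over NC (horizontal axis) with its 95% interval for the 9 tested members and for *NRG1* and *EGF*; orange and blue mark genes past the test, grey those that were not, and dashed lines mark a fold change of 2. *EREG* lies past the dashed line at 1.31, *ERRFI1* and *AREG* lie just short of it, and *ERBB2* is the 1 gene below 0 whose interval leaves out 0.

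Epiregulin (*EREG*) binds EGFR and ERBB4, and it had the largest change of the members. Its CPM was 43.5, 53.2 and 50.2 in NC (replicates 1, 2 and 3, the order used throughout) against 119, 123 and 123 in OE. The OE samples lay close together and far above every NC sample. The log2 fold change was 1.31 (SE 0.06, edgeR adjusted p = 5.1e-13), a 2.48-fold rise, and 114 of the tested genes had a larger one.

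Amphiregulin (*AREG*), which binds EGFR alone, was the most abundant ligand. Its CPM was 200, 176 and 193 in NC and 355, 350 and 334 in OE. No OE sample came near the NC range. The log2 fold change was 0.87 (SE 0.05, edgeR adjusted p = 3.4e-11), or 1.83-fold, and its 95% interval, 0.76 to 0.98, ended just short of a fold change of 2.

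Transforming growth factor alpha (*TGFA*), another ligand of EGFR alone, was at 28.9, 30.4 and 27.0 CPM in NC and 42.0, 42.1 and 48.9 in OE. OE replicate 3 was the highest sample, and the groups did not overlap. The rise was 1.54-fold, with a log2 fold change of 0.62 (SE 0.07, edgeR adjusted p = 4.4e-07). Without OE replicate 3 the log2 fold change was 0.54, the lowest of its fits with a sample left out.

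Betacellulin (*BTC*) and heparin-binding EGF-like growth factor (*HBEGF*) bind both EGFR and ERBB4, and both rose by less. The CPM of *BTC* was 11.3, 11.4 and 11.9 in NC and 16.4, 15.2 and 15.9 in OE, a log2 fold change of 0.46 (SE 0.08, edgeR adjusted p = 9.1e-05). That of *HBEGF* was 64.3, 62.4 and 63.8 in NC and 79.0, 78.5 and 78.6 in OE. The samples of *HBEGF* were tight within each group, so a 1.24-fold rise (log2 fold change 0.31, SE 0.05, edgeR adjusted p = 3.3e-05) stood clear of the spread.

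Epigen (*EPGN*), the remaining ligand of EGFR alone, was close to undetected. It had 1, 1 and 0 counts in NC and 1, 4 and 3 in OE. The groups overlapped at or near the floor of 3 counts, no fold change is given, and a difference was not detectable at this depth.

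**Figure D2:**
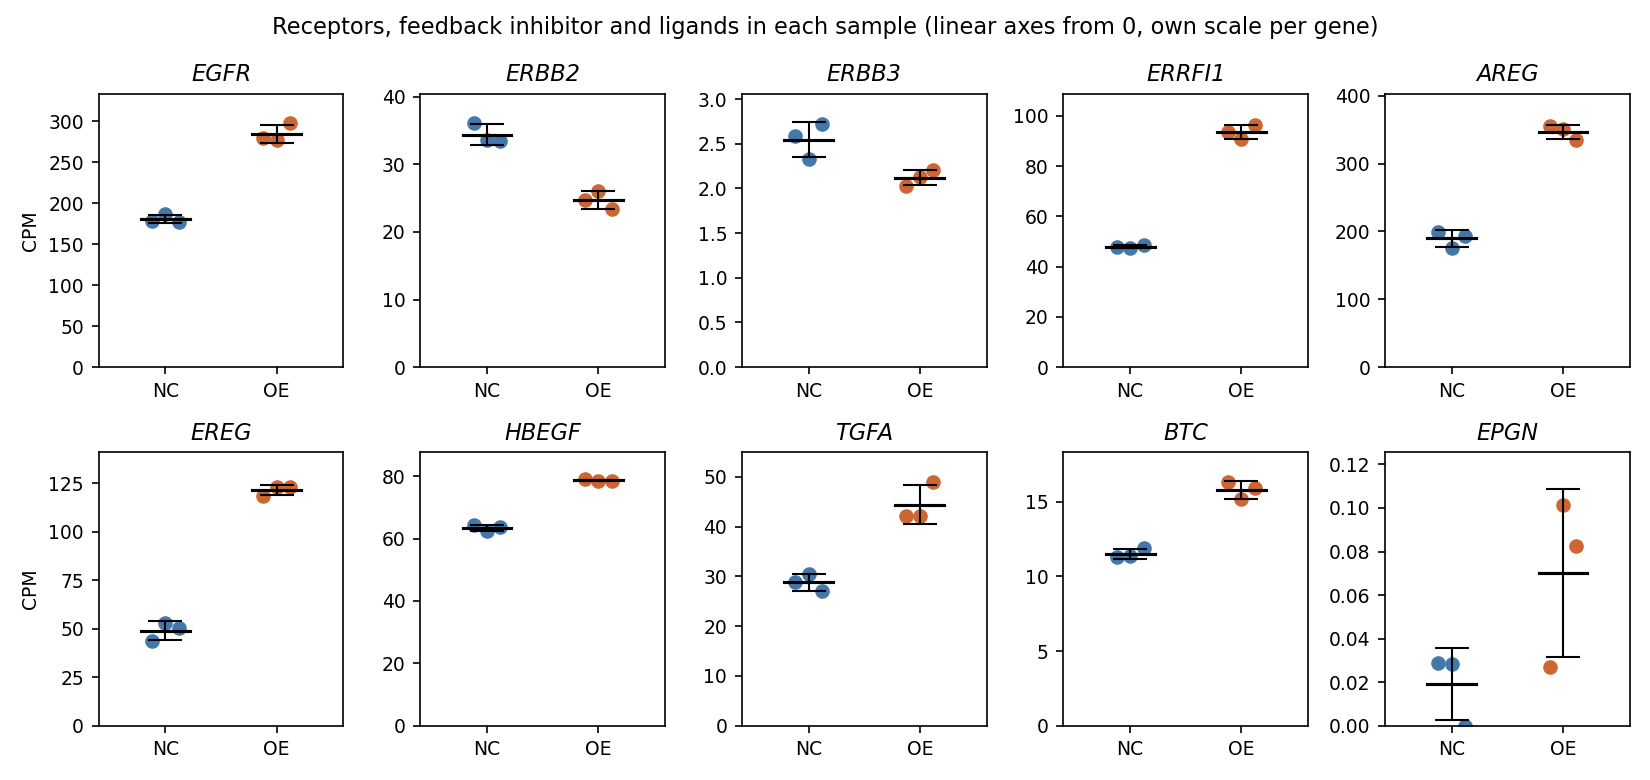
CPM (vertical axis, linear from 0, a separate scale for each gene) of the 10 members in the 3 NC (blue) and 3 OE (orange) samples, with the mean and SD in black. The groups are apart in every panel but that of *EPGN*, and OE lies below NC for *ERBB2* and *ERBB3*.

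The receptors went different ways. The CPM of *EGFR*, the receptor of all these ligands, was 179, 186.5 and 177 in NC and 280, 277 and 297 in OE. Every OE sample was well above every NC sample. The log2 fold change was 0.66 (SE 0.05, edgeR adjusted p = 8.9e-10), a 1.58-fold rise. *ERBB2* encodes the partner receptor that has no known ligand of its own. Its CPM was 36.15, 33.55 and 33.5 in NC and 24.7, 26.0 and 23.45 in OE, again with no overlap but in the other direction. Its log2 fold change was -0.48 (SE 0.07, edgeR adjusted p = 9.6e-06).

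*ERBB3*, the kinase-impaired receptor of neuregulins, was low in both groups. Its counts were 90, 82 and 98 in NC and 75, 84 and 80 in OE, and its mean CPM was 2.55 ± 0.201 and 2.12 ± 0.0857 (each SD, n = 3). The CPM ranges did not overlap, yet the change was not past the test (log2 fold change -0.27, 95% interval -0.62 to 0.09, edgeR adjusted p = 0.21). The interval still holds a drop as large as that of *ERBB2*.

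*ERRFI1* encodes MIG6, which binds the kinase domain of EGFR, blocks it and is itself induced by ERK signalling. Its CPM was 47.8, 47.5 and 48.6 in NC and 93.7, 90.7 and 96.5 in OE. The NC samples were almost the same, and the OE samples were all far above them. The log2 fold change was 0.97 (SE 0.05, edgeR adjusted p = 4.1e-12), and its 95% interval, 0.86 to 1.07, took in a fold change of 2.

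Levels were compared between genes on the deposited FPKM, which is per length. In NC the order of mean FPKM was *AREG* (106 ± 8.21, SD, n = 3), *HBEGF* (19.6), *EGFR* (13.3), *ERRFI1* (10.6), *EREG* (7.89), *TGFA* (5.39), *BTC* (4.0), *ERBB2* (3.07), *ERBB3* (0.200) and *EPGN* (0.00667). No neighbours in this order overlapped in NC. In OE the order was kept, but *EGFR* (21.3), *ERRFI1* (20.9) and *EREG* (19.9) came together, and the sample ranges of *EGFR* and *ERRFI1* overlapped, as did those of *ERRFI1* and *EREG*. *AREG* stood at 197 ± 3.83 (SD, n = 3) in OE.

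**Figure D3:**
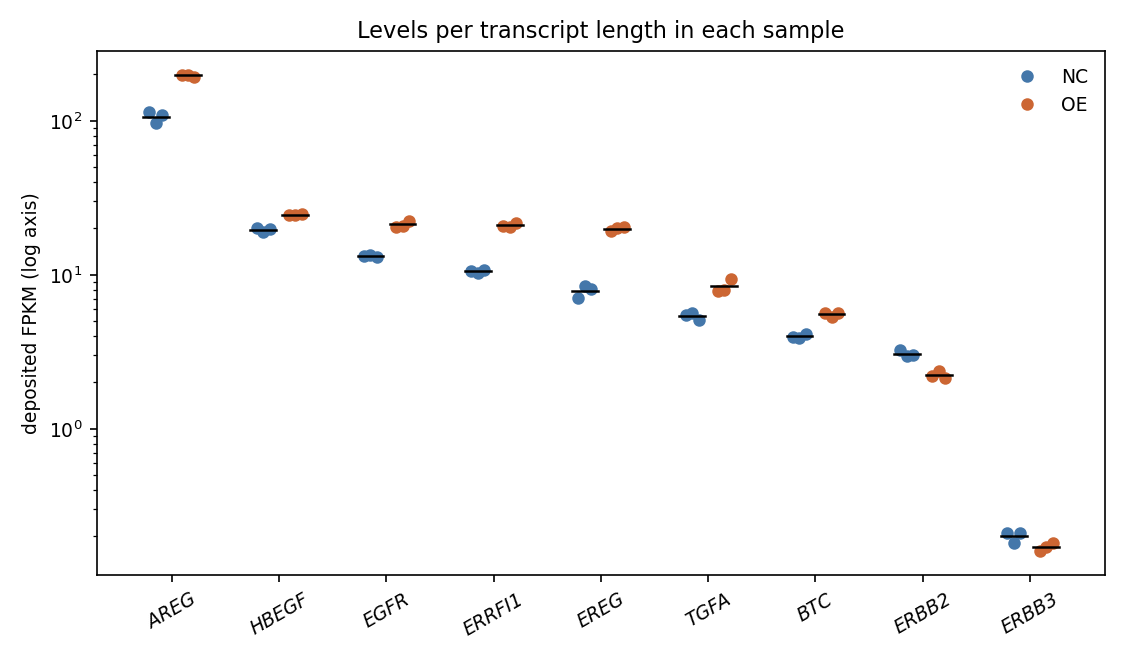
Deposited FPKM (vertical log axis) of 9 members in each NC (blue) and OE (orange) sample, in the order of their NC means, with group means as black lines; *EPGN*, with values at 0, is left out. *AREG* is highest in both groups, and *EGFR*, *ERRFI1* and *EREG* reach about the same level in OE.

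The make-up of the ligand pool was then described on the same scale. The summed FPKM of the 6 ligands was 150, 134 and 146 in NC and 256, 258 and 253 in OE. *AREG* made up 74.2% of that sum on average in NC and 77.1% in OE, so it was the main ligand transcript in every sample. The share of *EREG* was 4.74%, 6.30% and 5.575% in NC and 7.47%, 7.83% and 8.06% in OE. The share of *HBEGF* was 13.4%, 14.1% and 13.5% in NC and 9.50%, 9.53% and 9.83% in OE. The share of *BTC* was 2.65%, 2.90% and 2.84% in NC and 2.22%, 2.075% and 2.24% in OE. The pool thus held relatively more *EREG* and less *HBEGF* and *BTC* in OE, although each of these rose. These shares, and that of *AREG*, did not overlap between the groups, and the two-sided exact permutation test gave p = 0.1, its lowest possible value for 3 samples against 3 (0.14 after Benjamini-Hochberg adjustment over 11 quantities). The groups overlapped for *TGFA* (exact permutation p = 0.3). On CPM in place of FPKM the *AREG* shares overlapped as well (exact permutation p = 0.4).

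Ratios were also taken within each sample. The FPKM of *EGFR* was 4.09, 4.59 and 4.35 times that of *ERBB2* in NC and 9.36, 8.79 and 10.5 times in OE. The ratio of *ERRFI1* to *EGFR* was 0.7995, 0.762 and 0.822 in NC and 1.00, 0.979 and 0.971 in OE, so every OE sample held more of the inhibitor per receptor transcript than any NC sample. Neither ratio overlapped between the groups (exact two-sided permutation p = 0.1, adjusted 0.14). Summed ligand FPKM over *EGFR* FPKM went from 10.8 ± 0.748 to 12.04 ± 0.685 (each SD, n = 3), and here the samples overlapped (exact permutation p = 0.2).

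The ligand genes *EPGN*, *EREG*, *AREG* and *BTC* lie side by side on chromosome 4, a feature not used to choose them. In GENCODE release 44 on GRCh38 they take up 486 kb, from 74308470 to 74794523. *EREG* (74365145 to 74388749, plus strand) and *AREG* (74445136 to 74455005, plus strand) are 56.4 kb apart. *BTC* is on the minus strand, 289.8 kb beyond *AREG*. None of these 4 overlaps another annotated gene, and neither does *HBEGF* on chromosome 5. *EGFR* on chromosome 7 overlaps EGFR-AS1, *ERBB2* on chromosome 17 overlaps PGAP3 and MIEN1, and *ERBB3*, *TGFA* and *ERRFI1* overlap noncoding or unnamed genes. The kit was stranded, but the use of strand in counting is not given in the sources used here, so the counts of these 5 could hold reads of their partners.

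The promoters of the cluster are shown because *EREG*, *AREG* and *BTC* rose while *EPGN* stayed near 0. Sequences are the 130 bases before each start in the RefSeq table (GRCh38.p14), read along the gene, from chr4:74308340-74308469 (plus), chr4:74365015-74365144 (plus), chr4:74445006-74445135 (plus) and chr4:74794524-74794653 (minus). Capitals mark the CRE (TGACGTCA) or its core (TGACG), the sites of CREB and ATF factors, and the TATA box (TATAAA), and *BTC* has none of these.
EPGN: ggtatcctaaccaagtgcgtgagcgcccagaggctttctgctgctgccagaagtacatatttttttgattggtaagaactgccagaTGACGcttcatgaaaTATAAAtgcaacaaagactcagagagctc
EREG: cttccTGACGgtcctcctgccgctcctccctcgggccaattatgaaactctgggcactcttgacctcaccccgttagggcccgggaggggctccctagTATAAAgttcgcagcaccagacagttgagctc
AREG: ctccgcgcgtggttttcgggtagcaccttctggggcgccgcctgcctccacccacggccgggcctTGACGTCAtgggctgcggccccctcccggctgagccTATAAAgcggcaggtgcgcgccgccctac
BTC: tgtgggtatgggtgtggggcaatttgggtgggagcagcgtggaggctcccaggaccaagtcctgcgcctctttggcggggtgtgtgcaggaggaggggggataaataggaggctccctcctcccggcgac

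Motifs were searched in the 250 bases before the start, on both strands except for the TATA box, in 35116 windows of the table. The table held a window for 9 of the 10 members and none for *ERBB3*, and *EGFR* and *TGFA* have more than 1. The full CRE, found in 1.65% of all windows, was present in the members only in *AREG*, at bases -65 to -58 from the start. The core, which the CRE contains, was in 21.2% of all windows and in *AREG*, *EREG*, *EPGN* and 1 window of *TGFA*. A TATA box, in 6.80% of all windows, was in *AREG* and *EPGN* at -29 to -24, in *EREG* at -32 to -27 and in the downstream window of *EGFR*. An AP-1 site (TGANTCA, 6.57% of all windows) was in the downstream window of *EGFR* and in *ERBB2*. The CARE motif of ATF4 (TGATGNAA, 3.14%) was in no member's window. These are matches of letters, and nothing was measured on these promoters here.

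The genes around the cluster had smaller or opposite changes. Of 11 further protein-coding genes within 500 kb, 5 were tested. *CXCL2* and *CXCL3*, chemokines that attract neutrophils, were lower in OE, with log2 fold changes of -0.58 (edgeR adjusted p = 1.1e-07) and -0.47 (adjusted p = 0.0063). *CXCL5*, of the same family, was at 139, 144 and 150 CPM in NC and 157, 157.6 and 158.5 in OE (log2 fold change 0.13, edgeR adjusted p = 0.036). That call was lost without NC replicate 1, NC replicate 2, OE replicate 1 or OE replicate 2, and with upper quartile normalization, which left 0 of the 5 higher. *MTHFD2L*, a mitochondrial folate enzyme next to *EPGN*, had -0.04 (adjusted p = 0.78) and *PARM1*, beyond *BTC*, had -0.13 (adjusted p = 0.74).

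**Figure D4:**
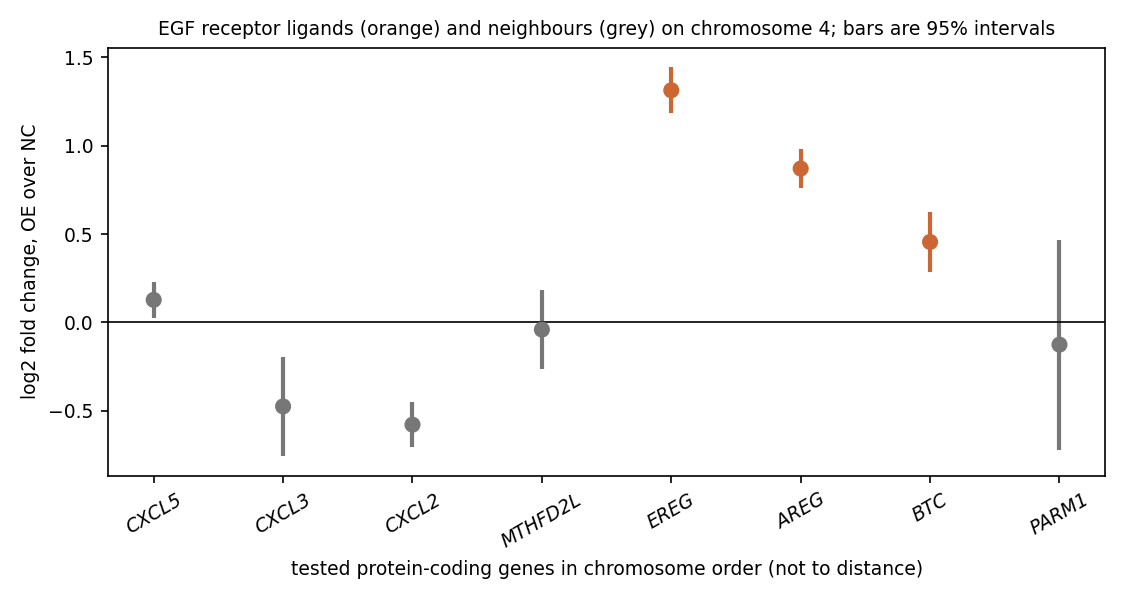
Log2 fold change of OE over NC (vertical axis) with 95% intervals for the 8 tested protein-coding genes in and around the ligand cluster, in their order along chromosome 4 and not to distance. The 3 ligands (orange) lie at 0.46 to 1.31, and the neighbours (grey) lie between -0.58 and 0.13.

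The rest of the ligand and receptor family was mostly absent. *EGF* itself had 24, 26 and 31 counts in NC and 18, 39 and 17 in OE (log2 fold change -0.23, 95% interval -0.93 to 0.47, edgeR adjusted p = 0.60). *ERBB4* had 6 to 11 counts in NC and 2 to 10 in OE, and *NRG2*, *NRG3* and *NRG4* had at most 4 counts in any sample, so none of these 4 was tested. *NRG1*, a ligand of ERBB3 and ERBB4, was the exception. Its CPM was 51.9 in NC and 67.0 in OE (log2 fold change 0.37, SE 0.05, edgeR adjusted p = 1e-05).

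Proteases that free the ligands, and their regulators, held genes that were lower and 1 that was higher. Of 15 tested proteases and regulators of shedding, 5 were lower, 1 was higher and 9 did not pass the test, where 23.7% of all tested genes were lower and 24.9% higher. Their median log2 fold change was -0.19 against -0.0032 over all tested genes, and whether the list differs from other genes was not tested. *TSPAN14* (-0.57, adjusted p = 3.6e-08) and *TSPAN15* (-0.50, edgeR adjusted p = 6.5e-06), tetraspanins that escort the protease ADAM10, and *ADAM12* (-0.49, adjusted p = 0.00012) had the smallest p. *ADAM17*, which cuts most ligands named here, was at 54.65 CPM in NC and 62.4 in OE, with samples that overlapped (log2 fold change 0.19, adjusted p = 0.026). It was the 1 higher gene, named after its value was seen, as were the remaining lower genes *ADAM19* (-0.46) and *RHBDL2* (-0.87). None was higher without NC replicate 1, NC replicate 3, OE replicate 2 or OE replicate 3. With upper quartile normalization 8 were lower and 0 higher.

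A list of genes tied to the restraint, sorting or degradation of these receptors, which leaves out *ERRFI1*, was counted in the same way. It was not limited to genes that lower EGFR. Of 27 tested, 14 were higher, 2 lower and 11 not past the test, beside 24.9% higher and 23.7% lower over all tested genes. Without OE replicate 3, 11 were higher. The median log2 fold change was 0.25, against -0.0032 over all tested genes. *SH3KBP1*, an adaptor that helps take the receptor into the cell, rose from 136 to 255 CPM (log2 fold change 0.90, edgeR adjusted p = 3.4e-12). *SPRED2*, an inhibitor of the RAS to ERK step, had 0.70 (adjusted p = 3.1e-08) and *STAM*, of the endosomal sorting machinery, had 0.69 (adjusted p = 1.3e-07). The ubiquitin ligase gene *CBLB* and *LRIG3*, of a family that includes inhibitors of the receptor, were the 2 lower genes, at -0.51 and -0.68. They were chosen after their values were seen.

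Genes that ERK signalling is known to induce were found in both directions. Of 16 tested, 11 were higher, where 24.9% of all tested genes were, and 4 were lower, where the share of all tested genes was 23.7%. The median log2 fold change was 0.51. *SPRY2* and *SPRY4* stand in this list and in the one before. *FOSL1*, an AP-1 subunit, rose from 271 to 497 CPM (log2 fold change 0.88, edgeR adjusted p = 1.3e-11). *CCND1*, which encodes cyclin D1, rose from 173 to 304 (log2 fold change 0.81, adjusted p = 4.1e-11). *FOS*, an immediate early gene, went the other way, from 49.1 to 12.9 (log2 fold change -1.93, edgeR adjusted p = 1e-14). The other 3 lower genes, *EPHA4*, *EGR1* and *IER3*, had -1.16, -0.78 and -0.23 and were chosen after their values were seen, as was *ETV4*, the 1 gene of the list called higher, at 1.12, and *DUSP4*, the 1 gene not past the test, at 0.56 (adjusted p = 0.099).

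**Figure D5:**
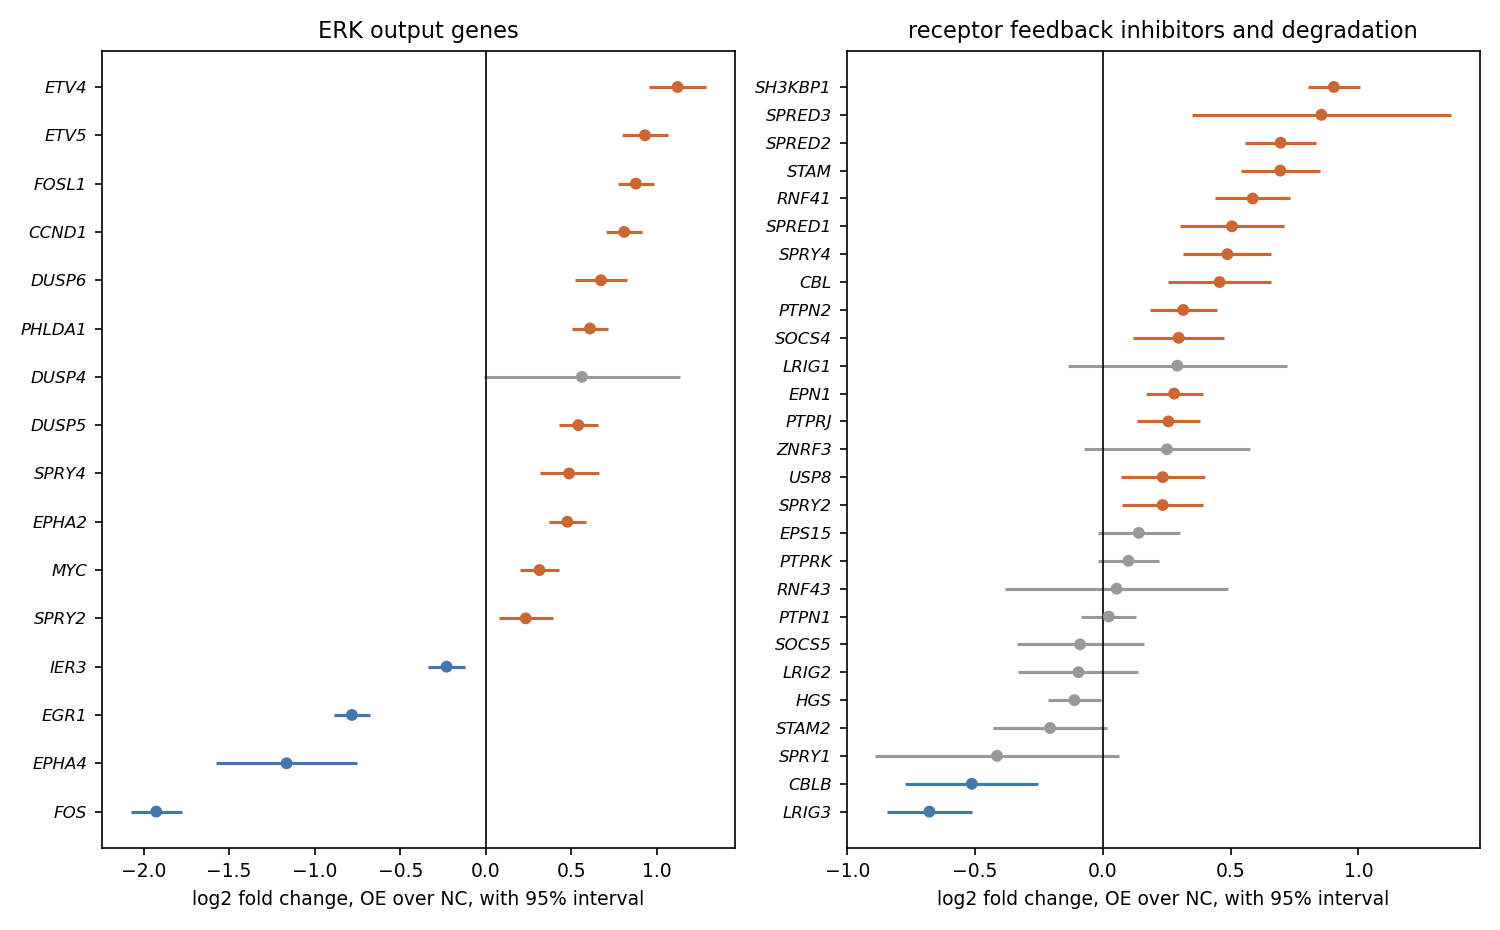
Log2 fold change of OE over NC (horizontal axes) with 95% intervals for the 16 tested ERK output genes (left) and the 27 tested receptor inhibitors and degradation genes (right), orange where higher, blue where lower and grey where not past the test. *FOS* lies at -1.93 while the 11 genes in orange on the left lie above 0.

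The pattern of *EREG*, the member with the smallest p, was set beside that of the 11770 genes that averaged 100 counts or more. *CCND1*, *TUBE1* and *UTP6* had the highest Pearson correlations of log2 CPM with it, each 0.999. This is over 6 samples in 2 groups, so most of each correlation is the step between NC and OE. The mean CPM of *UTP6* was 119 in NC and 155 in OE, and *TUBE1* reached 25.8 in OE.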

How the data were processed

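HK-2 RNA was sequenced from both ends as stranded mRNA libraries, 3 NC and 3 OE samples. The authors trimmed the reads with FASTX-Toolkit, aligned them to GRCh38 with HISAT2 and deposited counts of uniquely mapped reads per gene, without normalization, and FPKM to 2 decimals, relative to transcript length and mapped fragments. The submitters' processing notes also list mm10, which was not used here. The annotation release and counting program are not given in the sources used here. Leaving out version numbers, 99.7% of IDs matched GENCODE release 44.

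The counts were tested with edgeR 4.0.16 (R 4.3.3), using filterByExpr, TMM and the quasi-likelihood F-test over 15878 genes, with Benjamini-Hochberg adjustment. Each SE is the absolute log2 fold change over the square root of F. The study used DESeq2, which was an alternative (version 1.42.0), beside limma 3.58.1 on log2(FPKM + 1) and log2(FPKM + 0.1). Fold changes on those scales understate low genes. Counts were simulated for these 15878 genes in the OE against NC design, with no change in 15678 of them. There edgeR found 97 of 100 genes with a simulated log2 change of 1.5 and 67 of 100 with one of 0.5. It made 9 false calls. In the real data far more genes passed the test (24.9% higher and 23.7% lower), so these rates need not hold for them. Replicates differed by more than sampling noise (mean chi-square per gene of 5.12 or more).

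The members and lists were chosen with earlier results of these data known. All members, the other family genes, the tested chromosome 4 neighbours and the 3 genes with the smallest adjusted p of each further list are named, except where an item is not reported here. The intervals given with fold changes were built from the SE of the quasi-likelihood F-test. They therefore cover the spread between samples within a group as well as counting error. Alternatives covered the test, normalization, filter, replicate block, FPKM and each sample left out.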

Additional observations from a re-analysis of the deposited data

How the results depend on the processing

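Each member's log2 fold change was recomputed under 14 alternatives. All 126 values kept their direction and their side of the threshold, and the members counted as higher (7), lower (1) and called higher (1) were the same in number under every one. The log2 fold change of EREG stayed between 1.23 and 1.38, that of AREG between 0.82 and 0.91, EGFR between 0.62 and 0.68, ERRFI1 between 0.92 and 0.99 and ERBB2 between -0.51 and -0.33. The counts for the chromosome 4 neighbours and for most of the lists moved more. Those of the ERK output genes stayed at 10 to 11 higher and 4 lower under every alternative. Of the neighbours other than ligands, 0 were higher with upper quartile normalization, with no filter on low counts and with the replicate block, and 0 to 1 with a sample left out. Of the shedding genes, 0 were higher and 8 lower with upper quartile normalization, 0 were higher with limma on either FPKM scale, and 0 to 1 with a sample left out. Of the PI3K and STAT genes, 2 were lower and 1 higher with limma on either FPKM scale. With a sample left out, 2 to 4 of them were lower and 1 to 2 higher. Of the genes tied to receptor restraint, 12 were higher with limma on either FPKM scale, and 11 to 14 with a sample left out. The cause was not tested. The share of EREG in the ligand sum differed by 5.72 percentage points on CPM against 2.25 on FPKM, and that of HBEGF by -5.58 against -4.05, since CPM is not per length. Over all genes, 274 were called higher and 601 lower, against 243 and 553 by DESeq2, 55 and 69 by limma on log2(FPKM + 1) and 155 and 283 on log2(FPKM + 0.1). Same-numbered samples shared only a number, as their deviations from the group means correlated at -0.0032, -0.0663 and -0.0542 and 0 of 3 NC samples correlated best with its own number. With the replicate block, 3 PI3K and STAT genes were lower in place of 5. Depth limits EPGN, ERBB3, ERBB4 and EGF, which have under 100 counts a sample.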

Other observations

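Of 23 tested adaptors and RAS-MAPK genes, 7 were higher, 2 lower and 14 not past the test in OE, where 24.9% of all tested genes were higher and 23.7% lower. Their median log2 fold change was 0.0032 where that of all tested genes was -0.0032. RRAS, a relative of the RAS genes, fell from 37.9 to 25.3 CPM (log2 fold change -0.58, edgeR adjusted p = 3.6e-06). PTPN11, the phosphatase SHP2 that RAS activation needs, rose from 163 to 209 (0.36, adjusted p = 0.00014), and DAB2IP, a RAS GTPase-activating protein, from 23.6 to 30.5 (0.37, adjusted p = 0.00046). The other lower gene was MAPK3, at -0.31 (adjusted p = 0.0084), named after its value was seen.

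Of 13 tested genes of the PI3K and STAT branches, 5 were lower, 2 higher and 6 not past the test, beside the same 23.7% lower and 24.9% higher over all tested genes. PIK3R1, the regulatory subunit of PI3K, fell from 48.7 to 29.8 CPM (log2 fold change -0.71, edgeR adjusted p = 7.3e-09), and PIK3CA, a catalytic subunit, from 21.4 to 14.7 (-0.54, adjusted p = 9.4e-06). Named after their values were seen, PDPK1 was higher (0.34) and the other lower genes were AKT1 (-0.16), STAT3 (-0.16) and STAT5A (-0.25). The count of lower genes was 3 without NC replicate 2 and 2 without OE replicate 1. That of higher genes was 1 without NC replicate 2, NC replicate 3 or OE replicate 3.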
